A study of Caenorhabditis elegans with 9 samples.

Results

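Emerin/EMR-1 and LEM-2 are small proteins of the inner nuclear membrane that share the LEM domain, through which they bind the chromatin protein BAF-1, and both sit on the lamin network. In Caenorhabditis elegans they cover for each other: animals that lack either one live and reproduce, whereas loss of both together disturbs mitosis, muscle and development. The membrane they mark holds silent chromatin at the nuclear rim, so the transcripts that change when both are removed are of interest well beyond the nucleus itself. Here the transcriptome of animals labelled emr-1(RNAi) lem-2(tm1582) was set against that of wild type, gene by gene and by functional group.

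The series holds 9 libraries of poly(A) RNA from whole young adults, and 5 of them enter this comparison, 2 with the label emr-1(RNAi) lem-2(tm1582) and 3 of wild type, the N2 strain. The first group consists of animals that carry the deletion allele tm1582 of lem-2 and were fed bacteria that make emr-1 double-stranded RNA, and is called doubly depleted in the following, after its label. The other 4 libraries, 2 of lem-2(tm1582) and 2 of the deletion mutant emr-1(gk119), serve to estimate the spread and, for named genes, to show where the doubly depleted label differs from a single mutant. Every culture began with 40000 synchronized larvae and was grown in liquid culture on RNAi bacteria, at 20 °C for 53 h and with 1 mM IPTG, and all groups share these conditions. A negative control strain of bacteria, with an unrelated stretch of the empty vector in place of emr-1, is described in the methods, but which of the other cultures ate it is not spelled out. RNAi by feeding acts in some tissues more than in others, neurons being the usual weak spot, so the depletion may not be uniform. Each value is a normalized coverage: the median depth of reads over the bases of an exon, made equal in distribution between libraries and summarized per transcript as the median of its exons.

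Of 49395 rows, 24939 had a mean coverage of at least 1 and were tested, and they belong to 19567 loci. A row or locus is called when limma's moderated test, on log2(coverage + 1) over all 9 libraries, gave a two-sided Benjamini-Hochberg adjusted p under 0.05 against wild type. By that rule 6525 rows (26.2%) were higher and 3345 (13.4%) lower in the libraries labelled doubly depleted, and of the loci 5164 (26.4%) were higher and 2354 (12%) lower. These shares are the background for every count below. Both doubly depleted libraries lay above all 3 wild-type libraries at 8174 loci (41.8%) and below them at 3759 (19.2%). The median absolute log2 difference was 0.207 between the 2 doubly depleted libraries and 0.204 to 0.305 between wild-type libraries, but 0.675 to 0.807 between the groups, over 8111 loci.

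The excess of rises depends on the scale. The median locus stood 0.35 higher in the libraries labelled doubly depleted on the log2 scale, and when quantile normalization was repeated over loci this median became -0.03 and 3193 loci were called higher and 3530 lower, so that higher calls made up 68.7% of all calls on the deposited scale and 47.5% on the other. Centring each library on its median gave 40.4%, with 2831 higher and 4179 lower. Group medians are therefore also given relative to 0.35, and where a rescaling turns the sign of a group median, that value stands beside it. With 1 library left out the tests have fewer samples, and between 2267 and 4630 loci were called higher and between 1158 and 2153 lower, the fewest without doubly depleted replicate 1. Counts of at least 3 members of a gene group are repeated where leaving out 1 library or rescaling moves them by more than 1.5 times. Smaller counts move by as much under many of these settings, and most of them are not repeated. Depth in reads is not known from coverage values, and the replicates are 2 and 3 cultures. Every error below comes from the fit over all 9 libraries, so it draws on the spread within every group, single mutants included, and is moderated across loci.

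Tissue markers are given first, because in bulk samples fewer cells of a type and less RNA per cell cannot be told apart. All 5 oocyte markers fell, with a summed coverage of 268 to 269.9 in the libraries labelled doubly depleted against 1527 to 1759 in wild type. The 4 germ line markers summed to 103 to 110.0 against 277 to 304, with 3 of 4 called lower. The 5 sperm markers summed to 848 to 906 against 772 to 1080.5, with none called. Intestinal markers summed to 1368 to 1449.8 against 1278 to 1536 (1 of 5 called higher), and neuronal markers to 262 to 298 against 313 to 347 (2 of 6 higher and 1 lower). Body wall muscle markers summed to 693 to 932 against 325 to 515 (3 of 4 higher), and epidermal markers to 243 to 315 against 51.8 to 74.7 (3 of 5 higher, 1 lower). The 3 pharynx markers summed to 77.0 to 164 against 24.7 to 84.3, ranges that overlap, with 2 called higher, and the 3 coelomocyte markers to 37.8 in both libraries against 12.6 to 23.9, with 1 called. Of 7 genes first read in the embryo, 4 passed the coverage minimum and none was called. The muscle, pharynx, neuron and coelomocyte calls, the lower epidermal call, the higher epidermal call of bli-1 and the germ line call of nos-3 were lost without doubly depleted replicate 1. No marker that passed the minimum was at 0 in every library of a group. The part that tissue make-up or a difference in stage plays in the changes below was not tested.

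**Figure D1:**
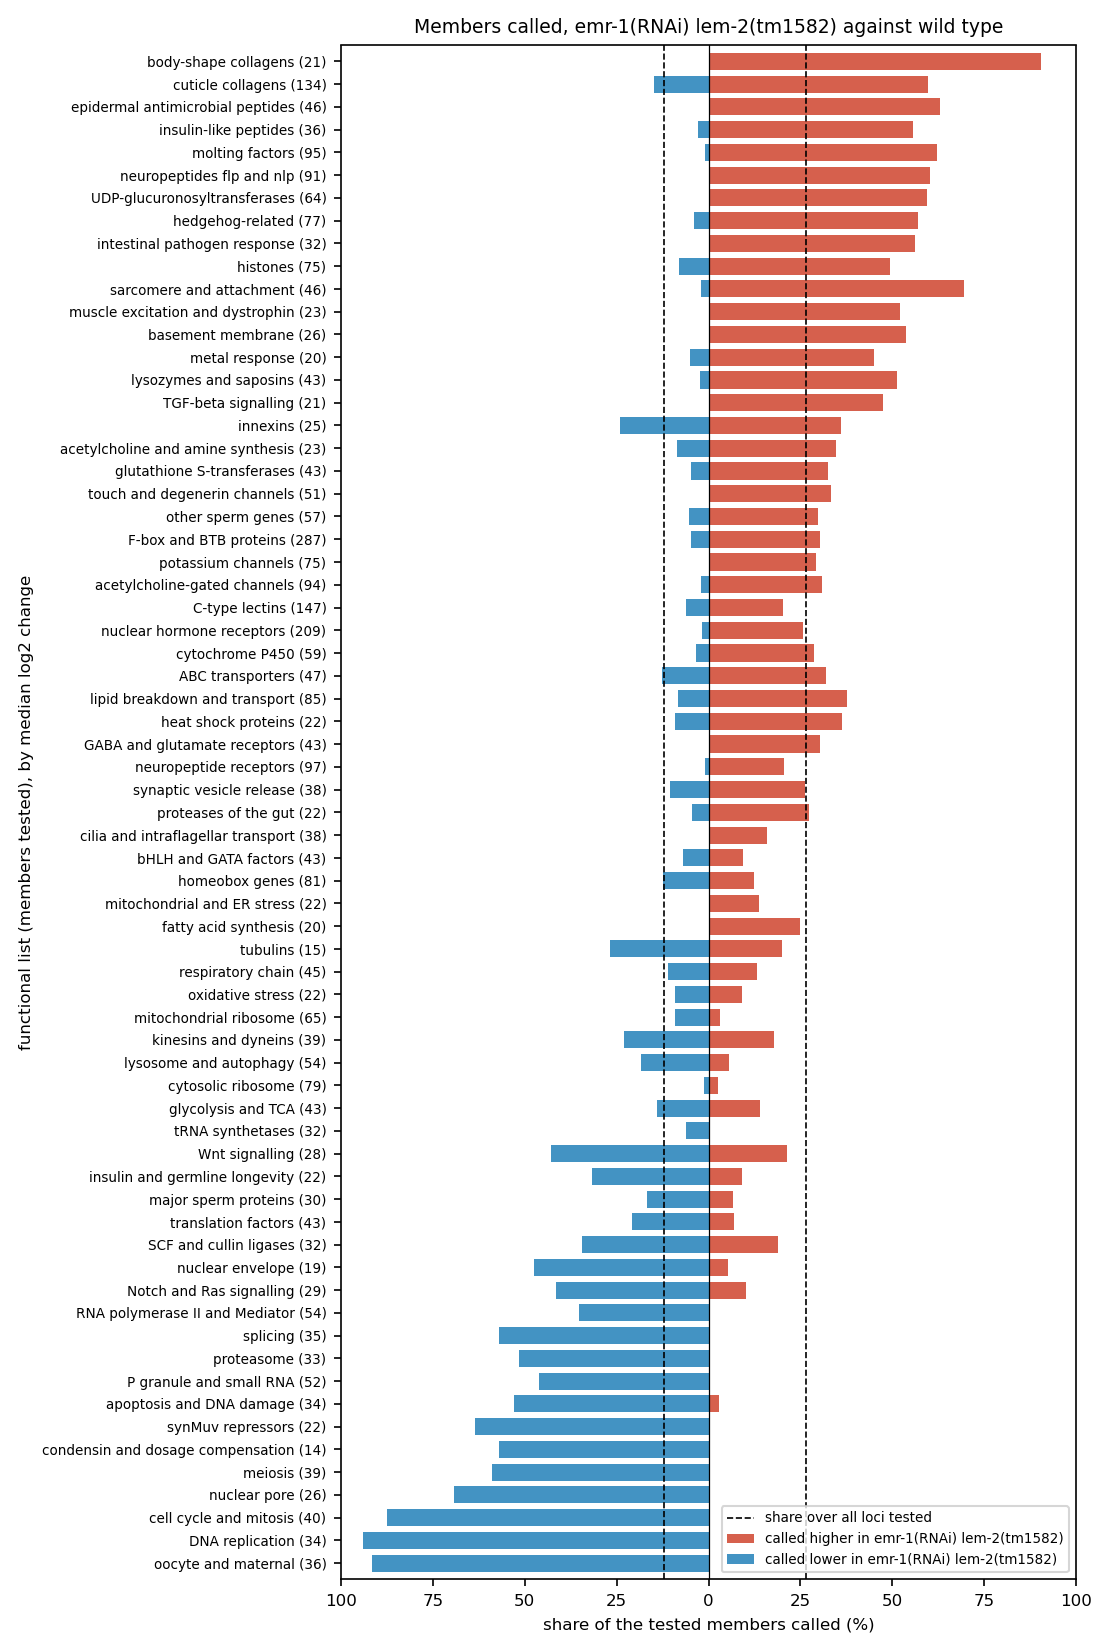
Share of the tested members of each functional list that was called higher (red, to the right) or lower (blue, to the left) in libraries with the label emr-1(RNAi) lem-2(tm1582) than in wild type, for lists with at least 14 members, ordered by median log2 change. Dashed lines mark the shares over all loci, 26.4% higher and 12% lower; collagens, antimicrobial peptides, molting factors and neuropeptides lie beyond the upper line, and oocyte, replication and mitosis genes beyond the lower one.

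The targeted genes come first. Coverage of emr-1 was 135 and 73.5 in the libraries labelled doubly depleted, against 52.1, 44.6 and 60.5 in wild type. Both values lie above wild type, so this table does not show a lower emr-1 level under that label, although the change of 0.92 ± 0.41 did not pass the test (limma, Benjamini-Hochberg adjusted p = 0.113). In the emr-1(gk119) libraries the gene was at 0.0 and 1.5, so the table does register its loss. The feeding bacteria carried the full-length emr-1 cDNA, and what part reads of that construct have in the coverage of emr-1 was not tested. The methods state that animals of the same doubly depleted cultures, kept for a further day, had dead embryos. The lem-2 gene was at 28.9 and 30.5 in the libraries labelled doubly depleted and 32.2, 29.3 and 39.0 in wild type, overlapping values with a change of -0.16 ± 0.20 (adjusted p = 0.57), and at 54 and 53.2 in lem-2(tm1582). A median over exons does not single out the bases that a deletion removes, so for lem-2 it checks nothing. Every direction below is thus one between libraries as labelled.

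The other partners at the nuclear rim moved mostly down. Of 19 nuclear envelope genes, 9 were called lower and 1 higher, with a median of -0.51, or -0.86 relative to all loci. sun-1 encodes the germ line SUN protein that ties chromosomes to the envelope in meiosis. It fell to 27.9 and 28.3 in the libraries labelled doubly depleted, against 90.8, 76.2 and 77.9 in wild type, without overlap (-1.50 ± 0.27). vrk-1, the kinase that releases BAF-1 from DNA at mitosis, had 27.3 and 28.1 against 64.0, 69.7 and 50.8 in wild type (-1.11 ± 0.18). lem-4, whose product helps bring BAF-1 back to chromatin after mitosis, had 14.8 and 12.6 against 35.1, 28.5 and 32.4 (-1.16 ± 0.21). These 3 calls held with every library left out in turn, whereas the number called lower was 3 without doubly depleted replicate 1.

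The only lamin gene, lmn-1, had 81.7 and 86.4 in the libraries labelled doubly depleted and 136, 156 and 121 in wild type. The groups did not overlap and the change was -0.70 ± 0.15 (limma, Benjamini-Hochberg adjusted p = 0.0109), a call lost without doubly depleted replicate 1. The inner membrane protein genes samp-1 and nemp-1 had 31.2 and 34.8 against 59.5, 72.1 and 52.6 in wild type (-0.87 ± 0.17) and 35.6 and 40.9 against 94.3, 88.7 and 61.5 (-1.05 ± 0.22). zyg-12, the KASH protein that holds centrosomes to nuclei, had 23.1 and 30.4 against 54.6, 49.4 and 40.6 (-0.83 ± 0.20). These 3 calls were lost without the same library, that of zyg-12 also without wild-type replicate 1. cec-4 encodes the chromodomain protein that anchors methylated histone H3 at the periphery. It had 11.6 and 15.6 against 33.8, 85.4 and 84.1 in wild type, a change of -2.13 ± 0.49 whose call needs both doubly depleted libraries, and lem-3, the LEM-domain nuclease, had 20.2 and 13.1 against 41.3, 48.5 and 31.1 (-1.23 ± 0.38, lost when any library but wild-type replicate 3 was left out). Not called were baf-1 itself (373 and 326 against 237, 284 and 195 in wild type), the SUN protein gene unc-84 (23.2 and 24.5 against 25.4, 20 and 30.2), the KASH genes unc-83 (48.6 and 33.1 against 31.0, 26.5 and 27.7), anc-1 (3.7 and 3.0 against 3.6, 5.4 and 6.9) and kdp-1 (1416 and 1459 against 1484, 1443 and 1277), and the torsin genes ooc-5 (115 and 112 against 82.6, 99.0 and 67.9) and tor-2 (3.7 and 2.0 against 1.0, 1.0 and 1.0). Among them baf-1, unc-83, ooc-5 and tor-2 lay above all 3 wild-type libraries without passing, and the others overlapped. The third torsin gene, tor-1, rose to 4.7 and 3.7, against 1.0, 1.5 and 2.0, values close to the coverage minimum, and its call was lost after either rescaling and without doubly depleted replicate 1.

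**Figure D2:**
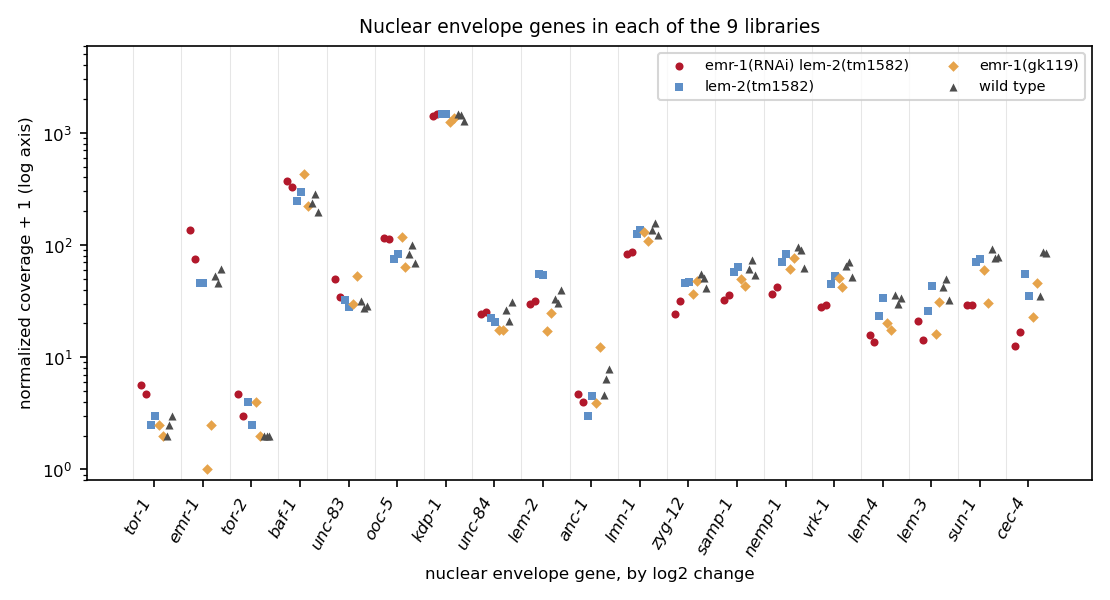
Normalized coverage plus 1, on a log axis, of the 19 nuclear envelope genes in each of the 9 libraries, ordered by log2 change; red circles carry the label emr-1(RNAi) lem-2(tm1582), blue squares lem-2(tm1582), orange diamonds emr-1(gk119) and grey triangles wild type. emr-1 is near 0 only in emr-1(gk119), and from lmn-1 to the right both doubly depleted libraries lie below all 3 wild-type libraries.

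The largest rises included genes that were higher than in wild type and also than in each single mutant. numr-1 encodes a nuclear protein that cadmium and other metals induce. It was at 211 and 182 in the libraries labelled doubly depleted, against 4.2, 7.4 and 2.0 in wild type, with 14.8 and 11.3 in the lem-2 mutant and 3.9 and 3.0 in the emr-1 mutant. The rise over wild type was 5.27 ± 0.40 (limma, Benjamini-Hochberg adjusted p = 0.000586), and the doubly depleted libraries exceeded the lem-2 mutant by 3.82 (adjusted p = 0.00661) and the emr-1 mutant by 5.48 (adjusted p = 0.00378). irg-4, an infection response gene of the intestine, was at 328 and 376 against 11.9, 12.7 and 3.6 in wild type, a rise of 5.24 ± 0.56 (adjusted p = 0.00116), with 34.9 and 12.3 in the lem-2 mutant and 19.6 and 16.1 in the emr-1 mutant. Both differences passed, 4.01 (adjusted p = 0.0114) and 4.23 (adjusted p = 0.0147). Over all loci, 10.2% were called higher and 6.27% lower against lem-2(tm1582), and 7.13% higher and 2.53% lower against emr-1(gk119). egl-1, whose BH3-only protein starts programmed cell death, belongs here too, with 27.8 and 36.5 in the libraries labelled doubly depleted and 1.0, 2.7 and 2.0 in wild type (3.55 ± 0.35), with 4.1 and 3.9 in the lem-2 mutant (difference 2.71, limma adjusted p = 0.00946) and 5.2 and 2.5 in the emr-1 mutant (2.82, adjusted p = 0.0128).

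Some other large rises were of similar size in the emr-1 deletion. dao-2, a gene named for its level in dauer and ageing worms, was at 1393 and 1176 in the libraries labelled doubly depleted and 101, 60.9 and 22.1 in wild type (4.61 ± 0.54), and at 1036 and 834 in the emr-1 mutant. dao-4 had 297 and 313 against 17.8, 25.2 and 4.8 (4.43 ± 0.56) and 316 and 384 in the emr-1 mutant. txdc-12.1, with a thioredoxin domain, had 1979.7 and 1359 against 100.2, 127 and 46.3 in wild type (4.27 ± 0.41) and 2578 and 1753 in the emr-1 mutant. For these 3 the difference from emr-1(gk119) was 0.46, -0.20 and -0.37, and none passed (limma, Benjamini-Hochberg adjusted p = 0.649, 0.868 and 0.632), which does not show that they are equal. The lem-2 mutant lay between, at 245 and 253 for dao-2, 78.4 and 76.0 for dao-4 and 351 and 358 for txdc-12.1. srlf-6 had 132 and 87.4 against 5.1, 9.3 and 1.5 in wild type (4.33 ± 0.53), but only 42.8 and 51.5 in the emr-1 mutant. That difference, 1.17, did not pass either (limma adjusted p = 0.237). In each of these genes the lowest wild-type value was that of replicate 3. That their groups did not overlap was a condition for naming them, so it adds nothing.

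On the falling side, mif-3, a homologue of the macrophage migration inhibitory factor, was at 1.0 and 3.0 in the libraries labelled doubly depleted, against 114, 61.1 and 74.7 in wild type, and reached 53.7 and 121 in the lem-2 mutant and 75.3 and 70.1 in the emr-1 mutant. Its difference was -4.85 ± 0.44 from wild type, -4.85 from the lem-2 mutant and -4.70 from the emr-1 mutant (limma, Benjamini-Hochberg adjusted p = 0.00077, 0.00646 and 0.00622). let-70, the ubiquitin-conjugating enzyme, was at 3.7 and 4.4 against 93.4, 106 and 83.1 in wild type (-4.23 ± 1.18), but 1 lem-2(tm1582) library was as low (171 and 4.9), and its call was lost with any 1 of the 5 libraries left out. gln-5, a glutamine synthetase, had 27.3 and 30.6 against 220.2, 192 and 225 (-2.83 ± 0.14). clec-87, a C-type lectin, had 199 and 251 against 1583, 1611 and 1867 (-2.91 ± 0.19), and rgs-8.2, a regulator of G protein signalling, 3.7 and 3.7 against 30.4, 23.8 and 35.8 (-2.71 ± 0.25). For gln-5, clec-87 and rgs-8.2 the doubly depleted libraries were below both single mutants, and each difference passed. tbx-9, a T-box factor of the embryo, had 1.5 and 4.4 against 21.8, 20.2 and 26 in wild type (-2.67 ± 0.48, lost without doubly depleted replicate 1).

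**Figure D3:**
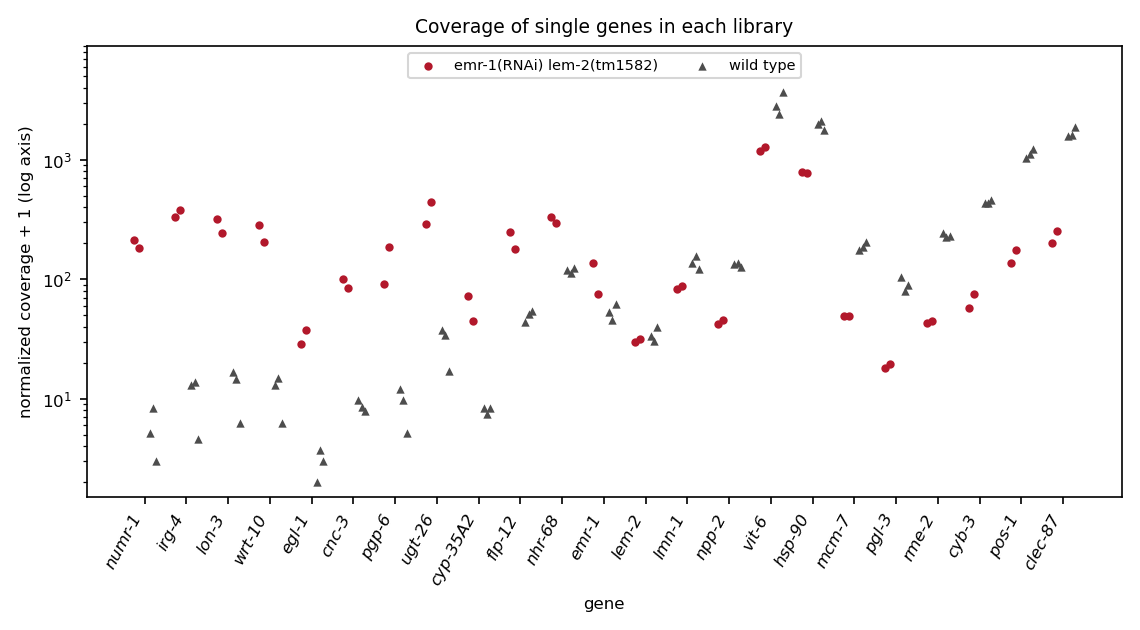
Normalized coverage plus 1, on a log axis, of 23 named genes in each library with the label emr-1(RNAi) lem-2(tm1582) (red circles, 2 libraries) and of wild type (grey triangles, 3 libraries). Genes on the left, from numr-1 to nhr-68, lie above wild type without overlap and those on the right, from npp-2 to clec-87, below; emr-1 is not lower, and lem-2 overlaps.

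Oocyte genes had the lowest group median. The list holds genes whose RNA is made in the germ line, held silent in the oocyte and used by the embryo, together with eggshell and yolk receptor genes, and 33 of 36 members fell, with none higher and a median of -2.13 (-2.48 relative to all loci). pos-1 encodes a zinc finger protein that patterns the early embryo by holding back translation. It was at 137 and 175 in the libraries labelled doubly depleted, against 1029, 1121 and 1226 in wild type, a change of -2.85 ± 0.17 (limma, Benjamini-Hochberg adjusted p = 0.000408). nos-2, a nanos homologue of the germ cell lineage, had 10.5 and 17.1 against 87.8, 76.9 and 138 (-2.77 ± 0.31), and puf-5, a pumilio-type repressor of late oocytes, 86.5 and 88.8 against 544, 594 and 568 (-2.68 ± 0.13). cey-2, a Y-box RNA-binding protein of germ cells, had 149 and 229.9 against 1528, 1482 and 1546 (-3.03 ± 0.20). In all 4 genes the groups were far apart and did not overlap, and the single mutants lay between them. pos-1 was at 638 and 809 in the lem-2 mutant and 454 and 392 in the emr-1 mutant, and the doubly depleted libraries were below both (differences -2.21 and -1.44, limma adjusted p = 0.00513 and 0.0126).

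Eggshell and yolk genes fell with them. cpg-2, a chondroitin proteoglycan of the eggshell, had 157 and 184 in the libraries labelled doubly depleted against 1088, 1109 and 1070.1 in wild type (-2.67 ± 0.14), and cbd-1, the chitin-binding protein of its outer layer, 102 and 105 against 552, 776 and 592 (-2.60 ± 0.18). rme-2, the yolk receptor of the oocyte, had 41.6 and 43.7 against 243, 226 and 229 (-2.42 ± 0.12). Yolk itself is made in the intestine from the 6 vitellogenin genes, which all fell, with a median of -1.40. vit-6 was at 1176 and 1267 against 2779.6, 2389.9 and 3684 in wild type (-1.25 ± 0.20) and vit-4 at 529 and 946 against 2412, 2192 and 2319.9 (-1.70 ± 0.23), whereas vit-2 (1281 and 1770.1 against 3751, 3366 and 6678, -1.54 ± 0.30) lost its call without doubly depleted replicate 1, when 3 of the 6 were called. The yolk genes did not follow the order of the oocyte genes across groups. vit-3 was at 204 and 355 in the libraries labelled doubly depleted, 398 and 450 in the lem-2 mutant, 32.5 and 22.5 in the emr-1 mutant and 1051, 1004 and 1157 in wild type, so that it was higher in the doubly depleted libraries than in emr-1(gk119) by 3.27 (limma, Benjamini-Hochberg adjusted p = 0.00391). vit-3, vit-4 and vit-5 are close copies, and vit-1 and vit-2 too, so their separate levels are uncertain.

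Genes of DNA replication fell together, 32 of 34 with a median of -1.52. mcm-7, a subunit of the replicative helicase, had 47.9 and 48.5 in the libraries labelled doubly depleted against 173, 186 and 204 in wild type (-1.94 ± 0.15). rnr-2, the small subunit of ribonucleotide reductase, had 119.7 and 145 against 623, 635 and 725 (-2.31 ± 0.16), and dut-1, the dUTPase, 35.5 and 51.4 against 258, 172 and 380.5 (-2.56 ± 0.34). rpa-2, a subunit of the single-strand binding complex, moved less, with 139 and 133 against 292, 227 and 322 (-1.02 ± 0.19). None of these groups of values overlapped. Cell cycle genes followed, 35 of 40 with a median of -1.15. cyb-3, a B-type cyclin, had 56.9 and 73.5 against 429, 432 and 454 in wild type (-2.74 ± 0.16, limma Benjamini-Hochberg adjusted p = 0.000392). plk-1, the polo kinase, had 34.2 and 40.8 against 128, 139.9 and 139 (-1.83 ± 0.14) and cye-1, cyclin E, 27.9 and 28.4 against 91.4, 97.3 and 86.8 (-1.67 ± 0.17). No member of either list rose, and both medians were lower still, at -1.77 and -1.41, after repeated quantile normalization.

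Chromosome condensation, meiosis and germ granules showed the same direction with smaller sizes. Of the condensin and dosage compensation genes 8 of 14 fell, among them capg-2 (21.3 and 31.1 against 80.4, 90.9 and 90.6 in wild type, -1.72 ± 0.20) and smc-4 (16.5 and 19.1 against 60.0, 62.7 and 45.9, -1.60 ± 0.18), both condensin subunits. Of the meiosis genes 23 of 39 fell. The checkpoint protein gene pch-2 had 17.0 and 32.1 in the libraries labelled doubly depleted and 87.8, 75.9 and 134 in wild type (-1.99 ± 0.32), and him-1, a cohesin subunit, 60.4 and 66.1 against 116, 135 and 103 (-0.88 ± 0.15), while htp-1, which encodes an axis protein, overlapped (116 and 128 against 70.3, 138 and 153). Of the P granule and small RNA genes 24 of 52 fell, with pgl-3, a scaffold of the granules, at 17.2 and 18.4 against 103, 79.0 and 88.2 in wild type (-2.27 ± 0.18). The Argonaute genes wago-1 (63.1 and 60.9 against 249, 258 and 265, -2.03 ± 0.12) and hrde-1 (73.2 and 79.4 against 257, 302 and 239, -1.78 ± 0.16) carry small RNAs of the germ line and fell as well. deps-1 had 14.8 and 16.6 against 69.3, 63.0 and 57.8 (-1.94 ± 0.14). No member of the 3 lists was called higher. The number of meiosis genes called was 10 without doubly depleted replicate 1 and 15 without wild-type replicate 1, and that of condensin genes was 13 with quantile normalization repeated and 13 with library medians centred.

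Sperm genes did not follow the oocyte genes. Of 30 major sperm protein genes 2 were called higher and 5 lower, with a median of -0.25, and msp-10 was at 685 and 648 in the libraries labelled doubly depleted and 848, 603 and 776 in wild type, overlapping values (-0.14 ± 0.16). Of 57 other sperm genes 17 were higher and 3 lower, with a median of 0.54, 0.19 above that of all loci. spe-26, a gene of spermatocyte cell division, rose to 86.3 and 77.4, against 27.2, 32.1 and 31.6 in wild type (1.41 ± 0.17), and gsp-3, a sperm phosphatase, overlapped (125 and 114 against 133, 93.3 and 123). Higher calls among the other sperm genes numbered 11 with quantile normalization repeated, 5 with library medians centred, 5 without doubly depleted replicate 1, 9 without doubly depleted replicate 2 and 11 without wild-type replicate 1, and lower ones 7 with library medians centred, 0 without doubly depleted replicate 1, 1 without wild-type replicate 1 and 1 without wild-type replicate 2. Lower calls among msp genes numbered 11 with quantile normalization repeated, 21 with library medians centred, 0 without doubly depleted replicate 1, 0 without doubly depleted replicate 2, 3 without wild-type replicate 1 and 13 without wild-type replicate 2. The msp genes are near-identical copies, so a read cannot be given to 1 of them with certainty, and no direction of the list is drawn from them.

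The general machinery of the nucleus was lower too. Of 26 nuclear pore genes 18 fell and none rose, with a median of -1.04. npp-2, a scaffold nucleoporin, had 40.9 and 44.8 in the libraries labelled doubly depleted against 133, 135 and 126 in wild type (-1.59 ± 0.12), and npp-9, the RanBP2 homologue, 108 and 88.0 against 275, 318 and 193 (-1.38 ± 0.22). The synMuv repressors, which silence genes through the DREAM and NuRD complexes, fell at 14 of 22. lin-53, the RbAp46/48 homologue in both complexes, had 72.8 and 75.2 against 264, 246 and 216 (-1.69 ± 0.17). The heterodimer partners efl-1 and dpl-1, E2F and DP, had 11 and 16.1 against 44.4, 45.4 and 47.8 (-1.71 ± 0.22) and 7.4 and 8.4 against 31.1, 40.9 and 34.9 (-2.03 ± 0.23). The nuclear pore count moved by no more than 1.5 times with a library left out, while that of the synMuv list was 7 without doubly depleted replicate 1 and 9 without doubly depleted replicate 2.

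Splicing, transcription and protein turnover showed partial falls. 20 of 35 splicing genes fell with a median of -0.69, for example snr-2, an Sm core protein (129 and 146 in the libraries labelled doubly depleted against 318, 308 and 274 in wild type, -1.12 ± 0.13), and rsp-5, an SR protein (32.1 and 47.2 against 115, 99.7 and 96.7, -1.39 ± 0.21), whereas the abundant snr-5 was not called (586 and 569 against 524, 554 and 566). 19 of 54 genes of RNA polymerase II and Mediator fell, among them mdt-8, a Mediator subunit (30.1 and 33.6 against 84.9, 85.8 and 88.4, -1.41 ± 0.13). 17 of 33 proteasome genes fell, among them rpt-2, an ATPase of the base (101 and 105 against 219, 229 and 200.2, -1.06 ± 0.16), while pbs-4, a core subunit, overlapped (594 and 531 against 553, 545 and 536). Without doubly depleted replicate 1 the calls came to 10 in splicing, 9 in RNA polymerase II and Mediator and 9 in the proteasome list. The proteasome count was also 5 without doubly depleted replicate 2 and 11 without wild-type replicate 1. After repeated quantile normalization 24, 29 and 26 members were called lower, and with library medians centred 31, 38 and 28. Of the chaperonin CCT genes 2 of 8 were called lower, and 0 with any library but wild-type replicate 3 left out.

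Apoptosis and DNA damage genes fell at 18 of 34, opposite to egl-1, the only member that rose. ced-3, the caspase that egl-1 activates through CED-9 and CED-4, was at 24.3 and 24.8 in the libraries labelled doubly depleted and 87.4, 92.9 and 96.6 in wild type (-1.87 ± 0.15). mlh-1, a mismatch repair protein, had 7.9 and 9.4 against 27.0, 26.6 and 30.7 (-1.59 ± 0.17) and hpr-17, a checkpoint clamp loader, 10.5 and 10.7 against 52.1, 36.6 and 43.3 (-1.94 ± 0.20). The p53 homologue cep-1, known to act on egl-1 after DNA damage, lay below all 3 wild-type libraries without passing (51.8 and 63.5 against 73.1, 90.5 and 66.8, -0.40 ± 0.23). Without wild-type replicate 3 a further member was called higher, 2 in all.

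Histone genes were mixed. Of 75 tested 37 were higher and 6 lower, with a median of 0.85. The core histone genes are present in many near-identical copies, so reads of 1 copy may be given to others, and counts over copies are uncertain. The libraries hold poly(A) RNA only, and how far it reflects the whole RNA of the core histone genes was not tested. his-53 had 136 and 77.7 in the libraries labelled doubly depleted against 13.8, 19.3 and 5.3 in wild type (3.07 ± 0.50). Among the 6 that fell, htz-1, histone H2A.Z, had 161 and 202 against 627, 625 and 664 (-1.82 ± 0.14), and the linker histones hil-4 and hil-5 had 76.5 and 68.2 against 259, 254 and 239 (-1.78 ± 0.16) and 91.9 and 109 against 372, 380.3 and 310.1 (-1.81 ± 0.20). Higher histone calls numbered 23 with library medians centred, 8 without doubly depleted replicate 1 and 23 without doubly depleted replicate 2, and lower ones 11 with quantile normalization repeated and 14 with library medians centred.

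**Figure D4:**
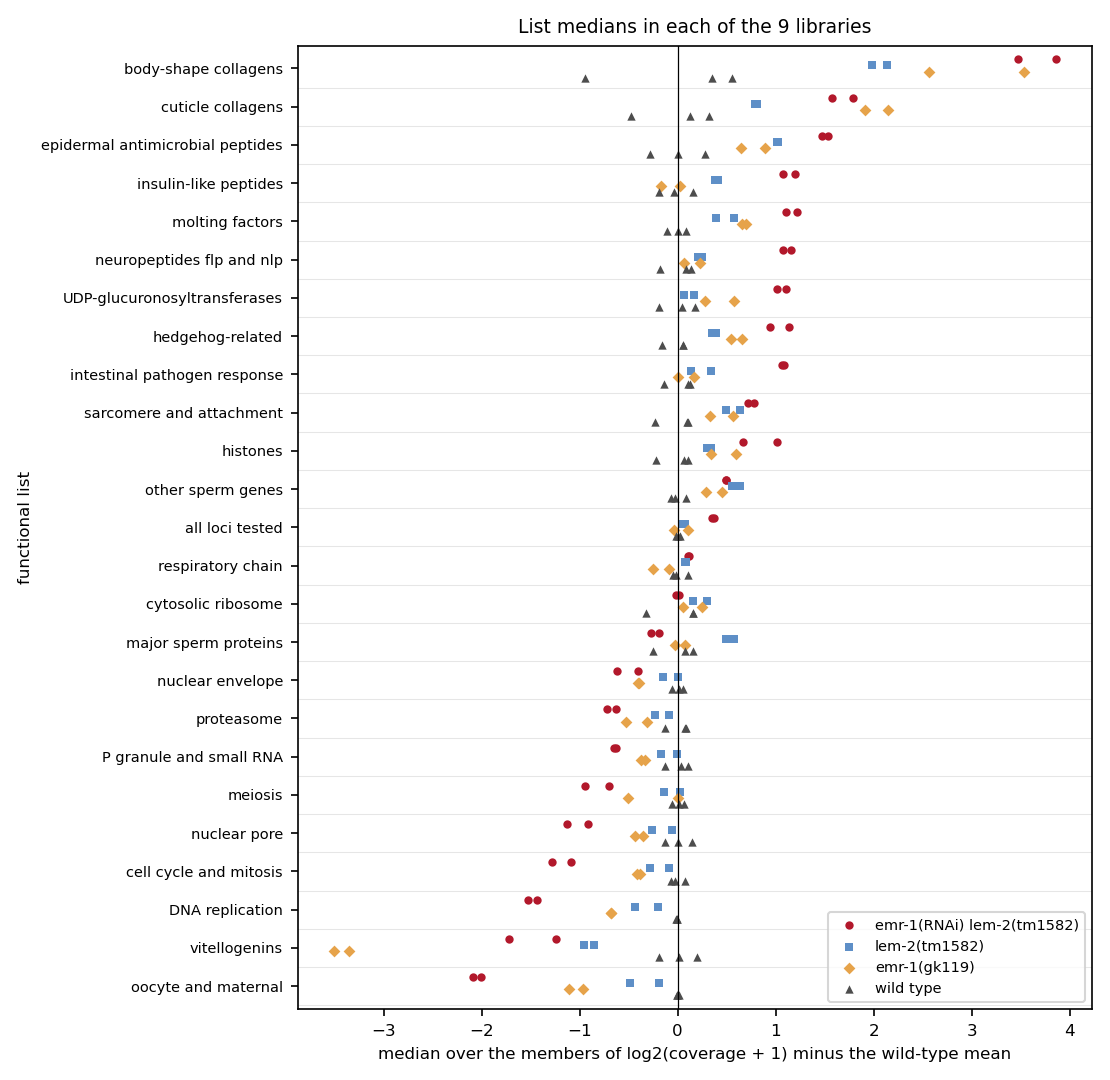
Median over the members of each list of log2(coverage + 1) minus the wild-type mean, in every library: red circles carry the label emr-1(RNAi) lem-2(tm1582), blue squares lem-2(tm1582), orange diamonds emr-1(gk119) and grey triangles wild type. The doubly depleted libraries are the lowest for oocyte genes, at -2.09 and -2.01, while emr-1(gk119) is lowest for vitellogenins, and wild-type replicate 3 is the lowest library for both collagen lists.

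The body-shape list of cuticle genes had the highest group median. The cuticle is a collagen coat that the epidermis lays down anew at each molt, and the body-shape genes (dpy, sqt, rol, lon, bli) are collagens and their makers, named for the mutant form. Of 21 such genes 19 rose, with a median of 3.69 (3.34 above all loci). lon-3 was at 315 and 242 in the libraries labelled doubly depleted, against 15.6, 13.7 and 5.3 in wild type, a change of 4.59 ± 0.40 (limma, Benjamini-Hochberg adjusted p = 0.000692). dpy-7, a collagen of the annular furrows, had 76.9 and 61.2 against 4.2, 4.3 and 2.5 (3.92 ± 0.24), rol-6 168 and 128 against 17.3, 14.7 and 5.3 (3.59 ± 0.48), and dpy-13 505 and 395 against 39.0, 51.9 and 10.2 (3.96 ± 0.61). In each the wild-type library with the lowest level was replicate 3, and without it 19 of the 21 were still called higher. lem-2(tm1582) stood in between for dpy-7 (14.9 and 16.7), with emr-1(gk119) at 25 and 29.7. The doubly depleted libraries exceeded both by 2.05 and 1.30 (limma adjusted p = 0.0076 and 0.0299), whereas lon-3 was at 306 and 259 in emr-1(gk119), a difference of -0.03 that did not pass (adjusted p = 0.989).

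Among 134 other cuticle collagens 80 rose and 20 fell. col-73 was at 1678 and 1319.7 in the libraries labelled doubly depleted and 102, 149 and 23.5 in wild type (4.36 ± 0.68), col-175 at 659 and 455 against 37.4, 60.7 and 9.7 (4.22 ± 0.65), and col-138 at 478 and 362 against 36.6, 41.9 and 7.3 (4.13 ± 0.66). In emr-1(gk119) these genes were as high, at 2279 and 3026, 850 and 823, and 484 and 732. Of all 134 tested, 3 were called above emr-1(gk119) and 22 below it, and 9 above lem-2(tm1582) and 10 below it. The falls included abundant genes. col-119 had 417 and 429 in the libraries labelled doubly depleted against 1235, 1382 and 1849 in wild type (-1.79 ± 0.19) and col-124 1202 and 992 against 1765, 2107 and 2442 (-0.93 ± 0.17). col-135 had 2.0 and 6.8 against 48.2, 31.7 and 55.9 (-3.22 ± 0.42), at 3.0 and 2.0 in emr-1(gk119) but 36.4 and 38.8 in lem-2(tm1582). Leaving out wild-type replicate 3 gave 76 higher and 19 lower, and leaving out doubly depleted replicate 1 gave 40 and 10. Without doubly depleted replicate 2 the lower calls were 12.

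Factors of molting rose with the collagens, 59 of 95 against 1 that fell (median 1.09, 0.73 above all loci). mlt-8 was at 183 and 152 in the libraries labelled doubly depleted and 17.0, 19.3 and 4.2 in wild type (3.76 ± 0.55). The lipocalins of the apical matrix lpr-3 and lpr-4 had 73.2 and 45.7 against 5.8, 5.4 and 2.0 (3.53 ± 0.38) and 59.4 and 48.1 against 4.2, 4.3 and 1.5 (3.73 ± 0.36). The exception was nhr-23, the receptor that drives the molting cycle, with 17.3 and 19.3 against 34.1, 41.1 and 28.2 in wild type (-0.86 ± 0.18, lost without doubly depleted replicate 1). Hedgehog-related genes, a family of secreted proteins of the epidermis with no classical hedgehog in this species, rose at 44 of 77 (median 1.0) and fell at 3. wrt-10 had 280.3 and 203 against 11.9, 14 and 5.2 (4.50 ± 0.39), grl-15 153 and 160.2 against 16.5, 10.7 and 5.3 (3.85 ± 0.38), and wrt-1 74.7 and 51.1 against 5.3, 4.3 and 3.0 (3.61 ± 0.34). On the receptor side ptc-1, the patched homologue needed for germ line cytokinesis, fell to 51.7 and 55.4, against 145, 150.4 and 138 (-1.41 ± 0.12), and ptr-2 to 17.0 and 16.1, against 40.9, 49.9 and 42.7 (-1.37 ± 0.19). Without doubly depleted replicate 1, 32 molting factors and 25 hedgehog-related genes were called higher. The median wild-type coverage was low, at 2.38 for molting factors and 2.8 for hedgehog-related genes. Of protein-coding loci with a wild-type mean from 1 to 5, 28.4% were higher and only 0.462% lower, so few falls could be called at such coverage.

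Antimicrobial peptides of the epidermis (nlp, cnc, fip and fipr genes), which worms raise after fungal infection or wounding, rose at 29 of 46, with none lower and a median of 1.51 (1.15 above all loci). cnc-3, a caenacin, was at 98.4 and 82.8 in the libraries labelled doubly depleted and 8.8, 7.5 and 6.9 in wild type (3.39 ± 0.17, limma Benjamini-Hochberg adjusted p = 0.000387). fip-6 had 310.0 and 299.9 against 38, 40.1 and 25.5 (3.13 ± 0.23), nlp-24 655 and 610.0 against 123.8, 191 and 73.6 (2.38 ± 0.37) and fipr-21 727 and 851 against 343, 423 and 274 (1.20 ± 0.20). nlp-25 had 67.2 and 70.4 against 8.6, 9.7 and 4.2 (3.11 ± 0.31), but it was higher again in emr-1(gk119), at 476 and 422, where the doubly depleted libraries stood lower by a difference of -2.69 (limma adjusted p = 0.0109). The groups did not overlap in any of these genes. The number of higher calls was 16 without doubly depleted replicate 1 and 17 without doubly depleted replicate 2. Neighbouring peptide genes of these clusters are similar in sequence, so reads may be shared between them.

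Intestinal defence genes rose as well. Of 32 pathogen response genes 18 rose and none fell (median 0.95), and of all 32 tested 10 were called above lem-2(tm1582) and 9 above emr-1(gk119). irg-5, an infection response gene, was at 21.7 and 30.6 in the libraries labelled doubly depleted and 2.0, 2.6 and 1.0 in wild type (3.26 ± 0.29), with 2.0 and 2.0 in the lem-2 mutant and 1.0 and 1.0 in the emr-1 mutant. Lysozyme and saposin genes rose at 22 of 43. spp-13 had 228 and 168 against 14.6, 10.6 and 4.7 (4.29 ± 0.40), spp-5, a pore-forming saposin that kills ingested bacteria, 3257 and 2575 against 1185, 874 and 1246 (1.41 ± 0.22), and the lysozyme lys-3 42.2 and 19.1 against 6.3, 5.4 and 4.2 (2.23 ± 0.36). C-type lectins went both ways, 30 higher and 9 lower of 147, or 20.4% and 6.12% against 26.4% and 12% over all loci. clec-209 had 627 and 983 against 148, 129.6 and 63.1 in wild type (2.87 ± 0.36), but 27.5 and 28.4 in the emr-1 mutant, a difference of 4.76 (limma adjusted p = 0.00378), whereas clec-88 had 161 and 212 against 913, 789.8 and 1312 (-2.40 ± 0.33). Higher calls in the pathogen response list were 11 without doubly depleted replicate 1, those among lysozymes and saposins were 10 with library medians centred, 9 without doubly depleted replicate 1 and 14 without doubly depleted replicate 2, and those among lectins were 18 with quantile normalization repeated, 18 with library medians centred and 16 without doubly depleted replicate 1, while lower calls among lectins were 4 without doubly depleted replicate 1.

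Stress genes did not move as 1 block. In the metal response list 9 of 20 rose and 1 fell, and beside numr-1 the metallothioneins mtl-1 and mtl-2, which bind cadmium and zinc, had 80.3 and 116 in the libraries labelled doubly depleted against 29.2, 25.8 and 44.7 in wild type (1.55 ± 0.41) and 314 and 154 against 96.7, 37.6 and 44.6 (1.99 ± 0.54). The call of mtl-1 was lost without any of the libraries but wild-type replicate 3, and that of mtl-2 without doubly depleted replicate 1 or wild-type replicate 2 or 3. Among heat shock genes 8 of 22 rose and 2 fell, with a median of 0.41 that became -0.03 with library medians centred. The inducible small chaperones hsp-16.1 and hsp-16.11 had 96.4 and 95.5 against 21.4, 44.3 and 13.5 (1.98 ± 0.47) and 106 and 106 against 24.3, 46.9 and 13.5 (2.04 ± 0.49), near-identical copies whose calls need both doubly depleted libraries. The constitutive chaperone hsp-90 fell to 780.1 and 771, against 1998, 2099 and 1755 in wild type (-1.33 ± 0.14). sip-1, a small heat shock protein made in germ cells and embryos, fell to 859 and 943, against 3194, 3431 and 3469 (-1.90 ± 0.17), and was called lower than in both single mutants (2384 and 3279 in the lem-2 mutant and 2451 and 2337 in the emr-1 mutant). Of the oxidative stress genes 2 rose and 2 fell of 22, and of the mitochondrial and ER stress genes 3 of 22 rose and 0 fell. In that last list the higher calls were 1 with quantile normalization repeated, 0 with library medians centred, 1 without doubly depleted replicate 1, 0 without doubly depleted replicate 2, 1 without wild-type replicate 1 and 1 without wild-type replicate 2, the lower calls 3 with quantile normalization repeated, 6 with library medians centred and 2 without wild-type replicate 3, and the median of 0.15 became -0.16 with quantile normalization repeated. Heat shock genes called higher were 5 with library medians centred, 2 without doubly depleted replicate 1 and 2 without doubly depleted replicate 2, and those called lower 5 with quantile normalization repeated, 5 with library medians centred, 1 without doubly depleted replicate 1, 1 without doubly depleted replicate 2, 1 without wild-type replicate 1, 1 without wild-type replicate 2 and 4 without wild-type replicate 3. Higher calls in the metal list were 3 with library medians centred, 4 without doubly depleted replicate 1 and 3 without doubly depleted replicate 2.

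Of the enzymes that modify and export foreign compounds, 1 family had a median well above that of all loci. UDP-glucuronosyltransferases, which add sugar to lipophilic compounds, rose at 38 of 64 with none lower and a median of 1.06. Their median wild-type coverage was 5.73, and of protein-coding loci with a wild-type mean from 5 to 20, 37% were higher and 7.1% lower. ugt-26 was at 290.1 and 441 in the libraries labelled doubly depleted and 36.6, 33.1 and 15.9 in wild type (3.69 ± 0.43), and ugt-5 at 68.3 and 60.2 against 8.3, 9.4 and 4.9 (2.97 ± 0.26). ugt-33 had 14.8 and 15 against 1.0, 1.5 and 1.0 (2.89 ± 0.22). Of the cytochrome P450 genes 17 of 59 rose and 2 fell. The share of higher calls was near the background and that of lower calls, 3.39%, below it. Their median of 0.48 became -0.06 with quantile normalization repeated. The xenobiotic-induced cyp-35A2 was at 70.6 and 43.7 against 7.3, 6.4 and 7.3 (2.82 ± 0.28), cyp-35A5 at 11.5 and 13.9 against 1.0, 1.0 and 1.0 (2.77 ± 0.28), and cyp-35C1 at 29.5 and 28.1 against 2.5, 3.2 and 1.0 (3.27 ± 0.39). All 3 also stood above both single mutants, cyp-35A2 by 3.02 and 1.41 (limma, Benjamini-Hochberg adjusted p = 0.00661 and 0.0361). Higher calls numbered 24 with library medians centred and 23 without doubly depleted replicate 1 for the transferases and 8 with quantile normalization repeated, 9 with library medians centred and 8 without doubly depleted replicate 1 for the P450 genes.

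Glutathione S-transferases rose at 14 and fell at 2 of 43. gst-4, the common reporter of the SKN-1 pathway, was at 142 and 167 in the libraries labelled doubly depleted and 33.3, 50.9 and 29.3 in wild type (2.04 ± 0.24), and gst-10 at 781 and 618 against 121.9, 114 and 64.9 (2.83 ± 0.28). ABC transporters rose at 15 and fell at 6 of 47, with a median of 0.45 that became -0.04 with quantile normalization repeated. The P-glycoprotein neighbours pgp-5 and pgp-6 had 55.9 and 95.2 against 7.1, 8.6 and 4.2 in wild type (3.32 ± 0.44) and 90.1 and 185 against 11.1, 8.7 and 4.2 (3.94 ± 0.52), while mrp-4 had 12.6 and 15.6 against 33.9, 48.6 and 48.6 (-1.55 ± 0.22). For pgp-5 and pgp-6 doubly depleted replicate 2 was the higher library and wild-type replicate 3 the lowest, without overlap. Higher calls numbered 9 with library medians centred and 7 without doubly depleted replicate 1 among the transferases and 8 with quantile normalization repeated, 8 with library medians centred, 6 without doubly depleted replicate 1, 9 without doubly depleted replicate 2 and 9 without wild-type replicate 3 among the transporters.

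Lipid metabolism changed gene by gene. In the list of lipid breakdown and transport 32 of 85 rose and 7 fell, with a median of 0.41, 0.06 above all loci and -0.03 with library medians centred. acdh-6, an acyl-CoA dehydrogenase, was at 39.9 and 28.1 in the libraries labelled doubly depleted and 4.2, 5.4 and 1.5 in wild type (2.98 ± 0.40). The acyl-CoA synthetases acs-13 and acs-19 fell, with 67.5 and 66.1 against 199, 291 and 197 (-1.74 ± 0.22) and 179.6 and 162 against 422, 402 and 492 (-1.35 ± 0.15), and so did lbp-9, a fatty acid binding protein (543 and 623 against 1450.1, 1427 and 1316, -1.26 ± 0.17). Of 20 fatty acid synthesis genes 5 rose, with the elongases elo-4 at 50.8 and 60.9 against 8.3, 19.3 and 9.3 (2.18 ± 0.33) and elo-9 at 89.6 and 82.7 against 33.9, 33.1 and 20.7 (1.56 ± 0.24), while the abundant desaturase fat-2 overlapped (2289 and 2301 against 2338, 2125 and 3836). Higher calls in the breakdown list were 17 with library medians centred and 16 without doubly depleted replicate 1 and lower calls 13 with library medians centred and 3 without doubly depleted replicate 2, and in the synthesis list the higher calls were 3 with library medians centred, 3 without doubly depleted replicate 1, 3 without doubly depleted replicate 2 and 3 without wild-type replicate 1.

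Genes of energy metabolism moved in both directions. Of 45 respiratory chain genes 6 rose and 5 fell (median 0.10, but -0.07 with quantile normalization repeated), of 43 glycolysis and TCA genes 6 rose and 6 fell (median -0.16, -0.51 relative to all loci), and none of the 12 genes of the mitochondrial genome was called, but 1 was called lower with quantile normalization repeated. atp-2, a subunit of ATP synthase, was at 1583 and 1369.8 in the libraries labelled doubly depleted and 1547, 1671 and 1341 in wild type. Single enzyme genes changed. gpd-1 and gpd-4, glyceraldehyde phosphate dehydrogenases with close copies, had 76.1 and 74.3 against 396, 319 and 364 (-2.24 ± 0.16) and 54.8 and 54.6 against 289, 288 and 246 (-2.30 ± 0.15), and sdha-2, a succinate dehydrogenase subunit, had 32.3 and 37 against 82.9, 77.9 and 82.1 (-1.20 ± 0.20). pyk-2, a pyruvate kinase, rose to 481 and 458, against 218, 248 and 256 (0.96 ± 0.17). Respiratory chain genes called higher were 3 with quantile normalization repeated, 0 with library medians centred, 0 without doubly depleted replicate 1, 2 without doubly depleted replicate 2, 3 without wild-type replicate 2 and 3 without wild-type replicate 3, and those called lower 8 with library medians centred, 2 without doubly depleted replicate 1 and 3 without doubly depleted replicate 2. Glycolysis and TCA genes called higher were 2 with quantile normalization repeated, 1 with library medians centred, 1 without doubly depleted replicate 1 and 2 without doubly depleted replicate 2, and those called lower 10 with quantile normalization repeated and 20 with library medians centred, so on both other scales lower calls outnumbered higher ones in this list.

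The translation machinery shows where the change of scale matters. The 79 cytosolic ribosomal protein genes had a median change of -0.01, with 2 called higher and 1 lower, and with library medians centred 12 were called lower. rps-25, the most abundant by mean coverage, had 6483 and 6483 in the libraries labelled doubly depleted and 7746, 9516 and 4782 in wild type. The 65 mitochondrial ribosomal genes had a median of 0.03 (2 higher, 6 lower), and the 32 tRNA synthetases -0.18 (2 lower). These medians are -0.36, -0.32 and -0.53 relative to all loci. The median of the mitochondrial list turned sign, to -0.15 with quantile normalization repeated and -0.41 with library medians centred, whereas those of the cytosolic ribosome and the synthetases were below 0 on all 3 scales. Lower calls among the synthetases were 4 with quantile normalization repeated, 17 with library medians centred, 1 without doubly depleted replicate 1 and 1 without wild-type replicate 1. Lower calls in the mitochondrial list were 19 with library medians centred, 0 without doubly depleted replicate 1, 1 without wild-type replicate 1 and 3 without wild-type replicate 2. Translation factors fell at 9 and rose at 3 of 43, and the germ line cap-binding protein ife-3 was among the falls (42.2 and 44.3 against 158, 150 and 125, -1.71 ± 0.18), as was eif-2A (74.6 and 72.7 against 205, 206 and 213, -1.48 ± 0.17). Lower calls among the factors were 14 with quantile normalization repeated, 27 with library medians centred, 3 without doubly depleted replicate 1, 4 without doubly depleted replicate 2 and 14 without wild-type replicate 3, and higher calls 0 with library medians centred, 0 without doubly depleted replicate 1 and 1 without doubly depleted replicate 2.

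Muscle genes rose by moderate amounts. Of 46 sarcomere and attachment genes 32 rose and 1 fell, with a median of 0.78, 0.43 above all loci. alp-1, an ALP/Enigma protein of dense bodies, was at 114 and 134 in the libraries labelled doubly depleted and 48.5, 49.1 and 39.3 in wild type (1.42 ± 0.15), and act-2, an actin that the early embryo and gonad use, fell to 339 and 424, against 899, 977 and 717 (-1.17 ± 0.18). unc-54, the main myosin heavy chain, had 524 and 333 against 234.9, 287 and 174 (0.87 ± 0.27), a call that was lost without doubly depleted replicate 1, without wild-type replicate 1 or 3 and after either rescaling. Genes of muscle excitation and the dystrophin complex rose at 12 of 23. sgn-1, a sarcoglycan, had 57.9 and 44.7 against 12.8, 13.7 and 6.3 (2.18 ± 0.36), and unc-36, a calcium channel subunit, 38.2 and 30.8 against 8.9, 12.1 and 7.3 (1.79 ± 0.29). Higher calls were 19 with quantile normalization repeated, 7 with library medians centred, 9 without doubly depleted replicate 1 and 14 without doubly depleted replicate 2 in the sarcomere list, and 5 with quantile normalization repeated, 3 with library medians centred, 4 without doubly depleted replicate 1 and 4 without doubly depleted replicate 2 in the excitation list.

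Basement membrane genes rose at 14 of 26, with none lower. mig-17, a secreted ADAM protease that shapes the membrane of the gonad, was at 47.7 and 40.9 in the libraries labelled doubly depleted and 9.2, 8.5 and 5.8 in wild type (2.37 ± 0.28), and pat-2, the alpha integrin of muscle attachments, at 65.4 and 54.6 against 21.9, 27.7 and 18.9 (1.37 ± 0.21). mig-17 was above both single mutants, at 10.4 and 10.4 in the lem-2 mutant and 15.2 and 8.4 in the emr-1 mutant (limma, Benjamini-Hochberg adjusted p = 0.012 and 0.0189). Intermediate filament genes rose at 5 of 11, with mua-6, which links muscle to cuticle through the epidermis, at 61.1 and 61.7 against 16.4, 17.5 and 17.4 (1.79 ± 0.17). Tubulins were mixed (3 higher, 4 lower of 15), with a median of 0.10 that became -0.24 with quantile normalization repeated. Higher calls among them were 1 with quantile normalization repeated, 1 with library medians centred, 0 without doubly depleted replicate 1, 0 without doubly depleted replicate 2 and 1 without wild-type replicate 1, and lower calls 1 without doubly depleted replicate 2, or 6 with quantile normalization repeated. In this list the gamma tubulin gene tbg-1 fell to 35.6 and 38.9, against 78.2, 96.4 and 86.3 (-1.20 ± 0.16). Of 39 kinesins and dyneins 7 rose and 9 fell. The mitotic kinesin klp-19 fell to 63.1 and 59.9, against 196, 201 and 158 (-1.57 ± 0.18), and klp-3, a minus-end directed kinesin, rose to 75.9 and 69.5, against 14.8, 20 and 12.1 (2.17 ± 0.29). Higher calls were 7 with quantile normalization repeated, 6 with library medians centred, 6 without doubly depleted replicate 1 and 8 without doubly depleted replicate 2 in the basement membrane list and 3 with quantile normalization repeated, 2 with library medians centred, 1 without doubly depleted replicate 1, 4 without doubly depleted replicate 2 and 4 without wild-type replicate 1 among the motors, whose lower calls were 14 with library medians centred. Intermediate filament genes called higher were 3 with library medians centred.

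In the nervous system peptide genes were mostly higher. Of 91 neuropeptide genes 55 rose and none fell, with a median of 1.08 (0.73 above all loci), and of all 91 tested 27 were called above lem-2(tm1582) and 22 above emr-1(gk119). The nlp genes of the antimicrobial cluster were kept out of this list. flp-12, an FMRFamide-like peptide, was at 248 and 178 in the libraries labelled doubly depleted and 42.8, 49.6 and 53 in wild type (2.10 ± 0.30), and nlp-36, an abundant peptide gene, at 1376 and 1243 against 629, 696 and 535 (1.08 ± 0.21, lost without doubly depleted replicate 1). Insulin-like peptides rose at 20 of 36 and fell at 1, with a median of 1.14. Their median wild-type coverage was 3.86, and of protein-coding loci with a wild-type mean from 1 to 5 only 0.462% were called lower. ins-11 had 31.8 and 29.8 against 3.6, 2.0 and 5.8 (2.81 ± 0.33), ins-35 30.6 and 30.0 against 3.7, 4.7 and 3.5 (2.66 ± 0.19), and ins-33 81.0 and 82.4 against 25.5, 25.5 and 26.9 (1.62 ± 0.22). In emr-1(gk119) ins-33 was at 23.3 and 23.7 and ins-35 at 19 and 20.9. Higher calls were 26 without doubly depleted replicate 1 for neuropeptides and 11 without doubly depleted replicate 1 and 13 without doubly depleted replicate 2 for insulins.

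Among ion channels and synaptic genes the share of higher calls lay near the background. Higher calls were 22 of 75 for potassium channels (median 0.51), 29 of 94 for acetylcholine-gated channels (0.50), 13 of 43 for GABA and glutamate receptors (0.39), 17 of 51 for touch and degenerin channels (0.55) and 20 of 97 for neuropeptide receptors (0.34). Lower calls in these 5 lists were 0, 2, 0, 0 and 1, at most 2.13% against 12% over all loci. The median wild-type coverage of these lists was low, from 1.83 to 2.49. Of protein-coding loci with a wild-type mean from 1 to 5, 28.4% were higher and 0.462% lower. After repeated quantile normalization their medians lay between -0.13 and 0.07, the higher calls were 7, 12, 3, 5 and 7, and the lower calls were 1, 3, 3, 1 and 6. With library medians centred the higher calls were 5, 13, 3, 4 and 7, and the lower calls 0, 5, 1, 3 and 3. The higher calls were 6, 9, 2, 7 and 6 without doubly depleted replicate 1, and 9, 16, 4, 7 and 9 without doubly depleted replicate 2. Without a wild-type replicate the higher calls were 13 for potassium channels (replicate 3), 16 for acetylcholine-gated channels (replicate 1), 8 for GABA and glutamate receptors (replicate 3) and 11 for touch channels (replicate 1).

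Some genes of these 5 lists kept their calls in every alternative run that tested them. Others did not, and twk-24, lgc-21, avr-14, avr-15 and glc-1 are named genes whose calls were lost without doubly depleted replicate 1. Among those that kept them were twk-8 and twk-48, both of the TWK family of potassium channels. In the libraries labelled doubly depleted twk-8 had 41.9 and 34.8, against 8.8, 12.7 and 7.3 in wild type (1.92 ± 0.30). twk-48 had 13.2 and 8.9 against 1.0, 2.6 and 2.0 (2.09 ± 0.31), but it did not reach the coverage minimum of 5 and was not tested in that alternative. The levamisole receptor subunit acr-8 had 21.2 and 17.0 against 4.2, 3.2 and 2.0 (2.31 ± 0.34), and the ligand-gated channel lgc-27 60.8 and 52.8 against 5.3, 8.6 and 3.0 (3.21 ± 0.36), at 43.8 and 64.2 in emr-1(gk119). mec-17, the tubulin acetyltransferase of touch neurons, had 74.4 and 52.9 against 18.5, 22.1 and 16.9 (1.67 ± 0.26), and npr-41, a peptide receptor, 17.0 and 8.4 against 1.5, 2.0 and 1.0 (2.40 ± 0.31). None of these groups of values overlapped. Of the genes of vesicle release 10 of 38 rose and 4 fell, with a median of 0.33 that became -0.13 with quantile normalization repeated. ric-4, the SNAP-25 homologue, was at 132 and 87.2 against 19.3, 43.4 and 27.8 (1.87 ± 0.39) and snt-1, synaptotagmin, at 28.4 and 24.4 against 8.6, 13.2 and 9.0 (1.30 ± 0.27), both lost without doubly depleted replicate 1. tdc-1, the tyrosine decarboxylase that makes tyramine in neurons and gonadal sheath, fell to 45.2 and 49.5, against 156, 151 and 234 (-1.88 ± 0.25). Vesicle genes called higher were 4 with quantile normalization repeated, 3 with library medians centred, 2 without doubly depleted replicate 1, 5 without doubly depleted replicate 2 and 6 without wild-type replicate 1, and those called lower 7 with quantile normalization repeated, 7 with library medians centred, 1 without doubly depleted replicate 1, 2 without wild-type replicate 1 and 2 without wild-type replicate 3, so that lower calls outnumbered higher ones after both rescalings.

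Gap junction genes went both ways. Of 25 innexins 9 rose and 6 fell. The intestinal innexins inx-15 and inx-16 had 402 and 386 in the libraries labelled doubly depleted against 118, 157 and 117 in wild type (1.60 ± 0.16) and 229.9 and 198 against 80.5, 69.3 and 50.8 (1.68 ± 0.23). The germ line innexins inx-14 and inx-22, which join oocytes to the sheath, had 22.3 and 26.2 against 73.0, 89.9 and 65.4 (-1.60 ± 0.23) and 14.8 and 13.7 against 44.9, 45.6 and 44.6 (-1.59 ± 0.17). All 4 calls held with any library left out, and the 2 counts moved by no more than 1.5 times with a library left out or after either rescaling.

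Signalling pathways differed by member. In the Wnt list 6 of 28 rose and 12 fell. Of the ligands, mom-2, the maternal Wnt of the early embryo, fell to 17.5 and 19.2, against 104, 84.8 and 117 in wild type (-2.40 ± 0.19), whereas cwn-1, cwn-2 and lin-44 rose to 37.5 and 26.8 against 9.4, 12.9 and 11.4 (1.43 ± 0.26), 14.3 and 18.6 against 4.8, 5.4 and 4.2 (1.58 ± 0.25) and 8.2 and 10.3 against 3.3, 3.2 and 2.5 (1.36 ± 0.21). Among the transducers the dishevelled genes dsh-2 and mig-5 fell to 20.2 and 20.1 against 57.8, 55.9 and 58.6 (-1.46 ± 0.13) and 19.9 and 25.2 against 65.2, 59.1 and 62.4 (-1.44 ± 0.16). In TGF-beta signalling 10 of 21 rose and none fell. The ligand unc-129, made by muscle, had 56.9 and 46.7 against 10.2, 16.6 and 9.3 (2.05 ± 0.30), the receptor sma-6 20.2 and 15 against 4.7, 4.3 and 7.9 (1.52 ± 0.36, lost without doubly depleted replicate 1), and the body length regulator lon-1 60.2 and 33.2 against 12.3, 17.3 and 12.9 (1.61 ± 0.28). Wnt genes called higher were 3 with quantile normalization repeated, 3 with library medians centred, 3 without doubly depleted replicate 1 and 3 without doubly depleted replicate 2, lower 6 without doubly depleted replicate 1, and TGF-beta genes called higher 5 with quantile normalization repeated, 4 with library medians centred, 3 without doubly depleted replicate 1 and 5 without doubly depleted replicate 2.

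In the Notch and Ras list 3 of 29 rose and 12 fell. The Notch receptor of the germ line, glp-1, had 24.6 and 25.3 in the libraries labelled doubly depleted and 80.1, 75.9 and 78.4 in wild type (-1.61 ± 0.14). mpk-1, the ERK kinase, had 20.8 and 23.7 against 57.4, 71.5 and 66.9 (-1.51 ± 0.18) and lip-1, a phosphatase that restrains it in the germ line, 8.4 and 7.4 against 37, 33.9 and 32.1 (-1.98 ± 0.17). All 3 were also called lower than in each single mutant. Higher calls in the Notch and Ras list were 1 with quantile normalization repeated, 1 with library medians centred, 0 without doubly depleted replicate 1 and 1 without wild-type replicate 1. In the insulin and longevity pathway 7 of 22 fell. The insulin receptor gene daf-2 had 9.5 and 6.5 in the libraries labelled doubly depleted against 17.1, 16 and 28.5 in wild type (-1.23 ± 0.29, lost without doubly depleted replicate 2) and its kinase partner age-1 17.0 and 21.2 against 45.3, 43.6 and 43.6 (-1.18 ± 0.23, lost without doubly depleted replicate 1). Lower calls in this pathway were 11 with library medians centred, 2 without doubly depleted replicate 1 and 4 without doubly depleted replicate 2.

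Transcription factors changed singly. Nuclear hormone receptors, a family much enlarged in this species, were called higher at 54 of 209 (25.8%) and lower at 4. The share of higher calls was near the background, and the median of 0.48 became 0.01 with quantile normalization repeated. nhr-68, which with nhr-10 turns on propionate breakdown, was at 328 and 296 in the libraries labelled doubly depleted and 118, 111 and 122.2 in wild type (1.40 ± 0.16), and nhr-259 at 17.0 and 13.9 against 2.0, 1.0 and 1.0 (2.84 ± 0.29). Homeobox genes had 10 higher and 10 lower calls of 81 and a median of 0.22 (-0.13 with quantile normalization repeated), with ceh-13, a Hox gene, at 29.1 and 27.0 against 7.3, 10.7 and 9.3 (1.54 ± 0.26) and ceh-38, of the ONECUT class, at 44.8 and 50.8 against 96.9, 104 and 90.6 (-1.01 ± 0.13). The intestinal GATA factor elt-7 rose to 34.8 and 52.3, against 11.9, 14.2 and 13.2 (1.63 ± 0.26). Higher calls among the receptors were 28 with quantile normalization repeated, 25 with library medians centred, 21 without doubly depleted replicate 1 and 27 without doubly depleted replicate 2, and lower ones 18 with quantile normalization repeated and 17 with library medians centred. Homeobox calls were 3 with quantile normalization repeated, 2 with library medians centred, 3 without doubly depleted replicate 1 and 4 without doubly depleted replicate 2 for the higher, and 4 without doubly depleted replicate 1 for the lower.

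Ubiquitin ligase adaptors of the F-box and BTB families, which are many and vary quickly between nematodes, were called higher at 87 of 287 (30.3%) and lower at 14. The share of higher calls was near the background, and the median of 0.53 became 0.07 with quantile normalization repeated. fbxa-30 had 9.5 and 14.2 in the libraries labelled doubly depleted against 2.0, 2.0 and 1.0 in wild type (2.27 ± 0.29) and fbxa-37 45.4 and 42.8 against 11, 9.7 and 6.3 (2.20 ± 0.24), while fbxa-215 had 53 and 44.7 against 151, 242 and 273 (-2.12 ± 0.38). The cullin cul-6 and its partner skr-3, parts of the ligase that answers intracellular infection, had 42.6 and 40.9 against 10.6, 17.4 and 10.7 (1.65 ± 0.27) and 293 and 251 against 92.5, 100.2 and 103 (1.45 ± 0.16). Both were also called higher than in each single mutant, with cul-6 at 15.8 and 15.4 in the lem-2 mutant and 15.2 and 9.8 in the emr-1 mutant. In the SCF list as a whole 6 of 32 rose and 11 fell, and lower calls were 17 with library medians centred, 3 without doubly depleted replicate 1, 6 without doubly depleted replicate 2, 6 without wild-type replicate 1, 7 without wild-type replicate 2 and 7 without wild-type replicate 3, and higher calls 3 with quantile normalization repeated, 3 with library medians centred, 3 without doubly depleted replicate 2 and 3 without wild-type replicate 1. F-box and BTB genes called higher were 53 with quantile normalization repeated, 52 with library medians centred, 55 without doubly depleted replicate 1 and 56 without doubly depleted replicate 2, and those called lower 27 with quantile normalization repeated, 33 with library medians centred and 5 without doubly depleted replicate 1.

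Among the 50 loci with the highest wild-type coverage 8 were called. pud-2.1 and pud-2.2, close copies of a gene named as up-regulated in dauer-pathway mutants, had 17489 and 16026 in the libraries labelled doubly depleted against 2321, 1885 and 7446 in wild type (2.39 ± 0.54) and 19693 and 17504 against 2322, 1891 and 7679 (2.52 ± 0.55). Both calls were lost with either doubly depleted library left out, and wild-type replicate 3 stood above the other wild-type libraries. pud-4, a member of the same family chosen after its values were seen, had 839 and 638 against 35.4, 35.6 and 84.8 (3.92 ± 0.44). Y119D3B.21 had 8712 and 10316 against 4359.9, 6250.2 and 3903 (1.0 ± 0.25), F56D12.10 1549 and 1993 against 3838, 5126 and 2725 (-1.10 ± 0.27) and the cathepsin cpr-9 1497 and 1578 against 3524, 2328 and 5115 (-1.18 ± 0.31), each lost when single libraries were left out, doubly depleted replicate 1 among them. The call of Y119D3B.21 was also lost after both rescalings, with 0.57 (limma adjusted p = 0.109) when quantile normalization was repeated and 0.56 (0.117) with library medians centred. The rest were vit-6, vit-2 and sip-1, given above.

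The changes were spread unevenly over the genome. Of the protein-coding loci 4380 of 16301 (26.9%) were called higher and 2249 (13.8%) lower. On the X chromosome 732 of 2334 (31.4%) were higher and 117 (5.01%) lower, whereas on chromosome I the shares were 22.4% and 19.6% and on chromosome III 21.7% and 18.5%. Chromosome V had 30.5% and 10.6%, chromosome IV 27.8% and 14.2%, and chromosome II 26.4% and 15.4%. With quantile normalization repeated the loci called higher and lower were 425 and 242 on X, 666 and 515 on V, 484 and 572 on IV, 479 and 628 on II, 296 and 646 on III and 350 and 681 on I. Lower calls thus outnumbered higher ones on chromosomes I to IV on that scale, and X still had the fewest falls among nuclear chromosomes. Wild-type coverage differs between chromosomes, with a median of 6.8 on X and 25.4 on I, and the shares differ with coverage as well. Of protein-coding loci with a wild-type mean from 1 to 5, 1415 of 4977 were higher and 23 lower, of those from 20 to 100, 1068 of 4877 were higher and 1390 lower, and of the 409 at 500 or more 53 were higher and 85 lower. The wild-type values enter both the class and the change, so this is a description. The X chromosome holds few germ line genes in this species, and how much of its low share of falls goes with coverage was not tested.

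**Figure D5:**
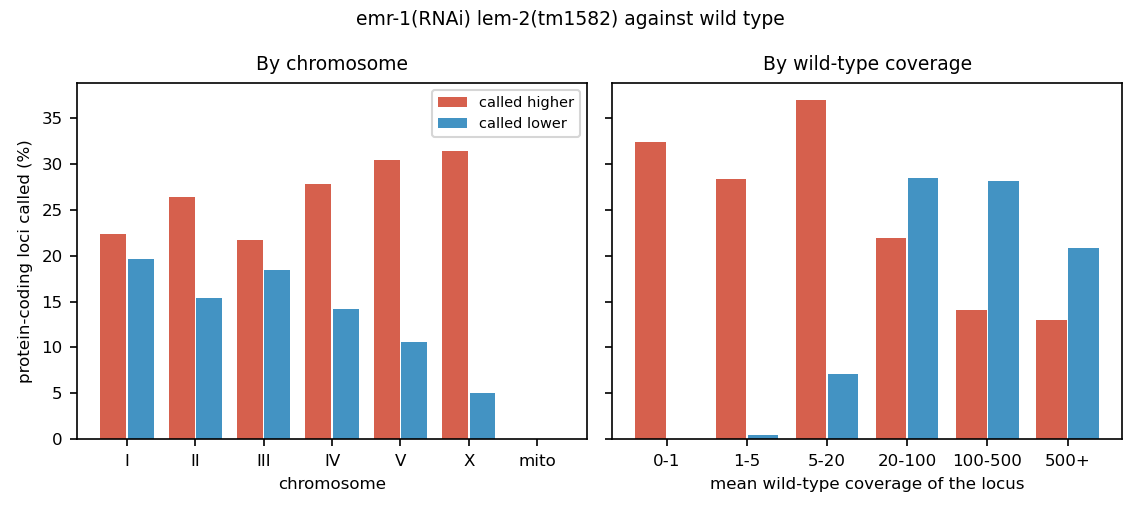
Share of protein-coding loci called higher (red) or lower (blue) in libraries with the label emr-1(RNAi) lem-2(tm1582) than in wild type, by chromosome (left; mito is the mitochondrial genome, 12 loci with no call) and by the mean coverage in wild type (right). On the deposited scale, which is the one drawn, the X chromosome has the lowest share of falls among the nuclear chromosomes, 5.01%, and falls are rare below a wild-type coverage of 5.

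Among other kinds of locus, 475 of 1528 annotated as piRNA were higher and 20 lower, 166 of 948 ncRNA loci were higher and 39 lower, and 24 of 110 tRNA loci were higher and 5 lower. With quantile normalization repeated these were 331 and 51 piRNA, 96 and 83 ncRNA and 12 and 11 tRNA loci. The libraries were made from poly(A) RNA, and strand is not known from the table, so how far coverage at piRNA and tRNA loci comes from overlapping transcripts was not tested. Transcripts of 1 gene mostly moved together. Of 3298 protein-coding loci with at least 2 tested transcripts, all transcripts were higher at 673 and all lower at 505, some were called at 517, and none at 1597. At 6 loci transcripts were called in both directions. They are E02D9.1, T20F10.2, mbk-2, oac-57, pms-2 and unc-60, picked out after their values were seen. At unc-60, which makes cofilins by alternative splicing, the transcript C38C3.5a was at 224 and 244 in the libraries labelled doubly depleted against 396, 395 and 372 in wild type (-0.73), while C38C3.5c was at 132 and 126 against 66.7, 49.2 and 53.8 (1.19).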

How the data were processed

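RNA was isolated from whole young adults of 9 cultures and sequenced as poly(A) RNA, and processed values were analysed for 2 cultures of emr-1(RNAi) lem-2(tm1582) and 3 of wild type, with 2 each of lem-2(tm1582) and emr-1(gk119) in the same fit. The authors aligned reads with TopHat to genome release WS231 and used SAMtools. The deposited coverage values are signal values that the authors made from the median read depth of every exon, by quantile normalization over the 9 libraries and a median over the exons of each transcript. Total reads per library are not given by these values (the maximum over all 9 libraries is 45905.3). Precision therefore rests on the spread between cultures within all groups of the fit, which is all that the p-values measure.

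Rows with a mean coverage of at least 1 were taken as log2(coverage + 1) and tested with limma 3.58.1 in R 4.3.3 (group means, mean-variance trend, two-sided, Benjamini-Hochberg over all rows or loci, threshold 0.05). Errors after ± are standard errors of the log2 change from that fit (n = 2 and 3), with the spread taken from all 9 libraries and moderated across rows or loci. A locus is the mean of its transcripts. With groups of 2 and 3 a permutation test of each locus on its own cannot reach the threshold. The authors called loci with SAM, which was not repeated here. Row names were matched to gene names and types in the Ensembl annotation of assembly WBcel235, which holds 99.1% of them, with older names looked up among RefSeq synonyms, and no sequence or coordinate was used. The code was tested on simulated data.

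Named genes are the 12 largest rises and falls among called, symbol-bearing protein-coding loci whose groups do not overlap and whose higher group mean is at least 20. For such genes the call and the lack of overlap were set by the choice. To these were added up to 3 called members per direction and the 2 of highest coverage from each list, every nuclear envelope gene, and called loci among the 50 of highest wild-type coverage. A gene outside this rule is said to be chosen after its values were seen. The comparison, the lists and the named genes were chosen with earlier results of these data known, so lists carry no test. Alternatives were other pseudocounts and coverage minimums, repeated quantile normalization, centred medians, no trend, 2 groups alone, a replicate block, medians of transcripts, and each library left out.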

Additional observations from a re-analysis of the deposited data

How the results depend on the processing

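The number of loci called in the libraries labelled doubly depleted depended on the scale and on the number of libraries. Of 5164 loci called higher, the count was 2831 with library medians centred, 3193 with quantile normalization repeated, and 2267 to 4630 with 1 library left out. The count of lower loci, 2354, was 4179 with centred medians, and 1158 to 2153 with 1 library left out. For rows, 6525 called higher became 3884 and 4200 under the same rescalings and 3004 to 5832 with a library left out, and 3345 called lower became 5411 with centred medians and 1739 to 3025 with a library left out. Pseudocounts of 0.1 and 5, coverage minimums of 5 and none, no trend, the 2 groups alone and medians of transcripts moved no count by more than 1.5 times.

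Of 454 named genes 376 were called. The number losing the call was 163 without doubly depleted replicate 1, 100 without doubly depleted replicate 2, and 57, 34 and 31 without wild-type replicates 1, 2 and 3. It was 53 with centred medians, 34 with repeated quantile normalization, 41 with the 2 groups alone, 24 with no coverage minimum, and 8 or fewer under each remaining alternative other than the block. The sign of 1 called gene turned. skr-1, a Skp1 homologue, changed by 0.41 on the deposited scale and -0.02 with library medians centred, as the construction of that scale lowers all changes.

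Replicate numbers are shared by the groups, but the labels do not say that a number marks a shared batch. The correlation of deviations between doubly depleted and wild-type libraries was -0.025 for replicate 1 and -0.134 for replicate 2 over 8111 loci. With 2 doubly depleted libraries the deviations of 1 mirror those of the other. The 2 correlations are thus not independent, and they cannot exclude a shared batch. With the number as a replicate block 4093 loci were higher and 1860 lower, and 5169 rows higher and 2682 lower, and 57 named genes lost their call. Depth cannot be read from coverage, so changes near the minimum of 1 are the least certain.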

Other observations

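A few loci, chosen after their values were seen, were near 1 in some libraries and high in others. T21H3.5 was at 1.0 and 2.0 in the libraries labelled doubly depleted, against 233, 240.0 and 244 in wild type, and was at 1.0 in both lem-2(tm1582) libraries and 2.0 in both emr-1(gk119) libraries. F35H10.6 was at 1.5 and 2.0 in the libraries labelled doubly depleted, against 132, 188 and 69.7 in wild type, and it was low in lem-2(tm1582), at 2.0 and 1.0, but not in emr-1(gk119), at 83.4 and 139. pas-7, which encodes a proteasome subunit, was at 1.0 in both doubly depleted libraries, against 237, 2.0 and 233 in wild type, 211 and 198 in the lem-2 mutant and 265 and 327 in the emr-1 mutant, so 1 wild-type library shared the low value.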
